A study of Mus musculus with 4 samples.

Results

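The 6 genes described here encode lectin-like receptors best known from natural killer (NK) cells, measured in dendritic cells (DCs), the antigen-presenting cells of the spleen. They are Klra17 (Ly49Q), Klrd1 (CD94), Klrk1 (NKG2D), Klrc1 (NKG2A), Klrg1 and Klrb1c (NK1.1). They were chosen by gene symbol in the array platform's annotation, out of 18193 genes with a probe set of their own. Of the 6 genes, 5 had such probe sets, 6 in all, and Klrb1c is represented by 1 probe set that it shares with Klrb1b. DCs sorted from mouse spleen into 4 subsets were profiled on 1 Affymetrix array per subset: CD8+CX3CR1+, CD8+CX3CR1-, CD4+ and DN DCs, where DN in this field usually stands for cells with neither CD4 nor CD8. All mice were Cx3cr1gfp/+ on the C57BL/6 background, so that each carried green fluorescent protein in place of 1 copy of Cx3cr1, and no sample was labelled as treated with BMP4. Spleen cells were enriched for CD11c with magnetic beads and the CD11chi cells were sorted. The sources used here do not give the age, the number of mice or any pooling. On the CD8+CX3CR1- and DN arrays the DC type named in a second label contradicts the title, and the titles were followed.

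These receptors belong to the C-type lectin superfamily, and most of their genes lie together in a cluster on a single chromosome called the NK gene complex. Inhibitory members carry a tyrosine motif in the cytoplasmic tail that recruits phosphatases such as SHP-1, whereas activating members lack signalling motifs and depend on adaptor proteins such as DAP12, DAP10 or the Fc receptor gamma chain. Several of them read MHC class I or related molecules on other cells. Ly49Q is unusual in the Ly49 family in that mouse plasmacytoid DCs and other myeloid cells carry it.

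Signals are linear MAS5 values. Low signals were raised to a floor of 55.3, the 90th percentile of 130 probe sets for olfactory, vomeronasal, taste and trace amine receptors and keratin-associated proteins, and 12673 genes exceeded it on 1 or more arrays. Of the 6 receptor genes, 4 did: Klra17, Klrd1, Klrk1 and Klrg1. Klrc1 lay under it on all 4 arrays, as did the probe set shared by Klrb1b and Klrb1c. With 1 array per subset there are no replicates and no test is possible, so a difference describes 2 arrays and carries no p-value. A gene was called different when it was at least 4-fold apart. Where 1 array lay under the floor, the fold is given as a bound against the floor. As a measure of probe error, the log2 differences given by several probe sets of the same gene had a root mean square standard deviation between 0.42 and 0.55 in the 6 pairs of arrays. Differences between mice or between sorts are outside this measure. Signals of different probe sets are not on a common scale, so levels are compared between arrays and not between genes.

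Markers of the sorted cells went with the titles. Cd8a had signals of 2530 in CD8+CX3CR1+ and 4742 in CD8+CX3CR1- DCs, with 18.7 in CD4+ and 129.5 in DN DCs. Cx3cr1 was highest in CD8+CX3CR1+ DCs, at 893.7 against 97.3 in CD8+CX3CR1-, 275.0 in CD4+ and 258.4 in DN DCs, and Cd4 was highest in CD4+ DCs, at 563.5 against at most 93.9 elsewhere. All 8 conventional DC markers listed lay above the floor on all 4 arrays, among them Itgax (CD11c), which lay between 3271 and 6415. On the CD4+ array 47.9% of probe sets exceeded the floor, against 41.2% to 42.8% elsewhere. The Gapdh control probe sets gave a 3'/5' ratio that was largest there too, at 11.8 against 7.56 to 8.98.

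Klra17 encodes Ly49Q, an inhibitory receptor that binds MHC class I. Its signal was 1519 in CD8+CX3CR1+, 52.1 in CD8+CX3CR1-, 155.6 in CD4+ and 311.4 in DN DCs. It was highest in CD8+CX3CR1+ DCs and under the floor in CD8+CX3CR1- DCs, where 20 of the 130 background probe sets had a signal at least as high. On the CD4+ array 1 of them did, and on the other 2 arrays none did. Klra17 was at least 27.5-fold higher in CD8+CX3CR1+ than in CD8+CX3CR1- DCs, 9.76-fold higher than in CD4+ DCs and 4.88-fold higher than in DN DCs. It was therefore called higher in CD8+CX3CR1+ DCs against each of the other subsets, and no other receptor gene of the 6 was. CD8+CX3CR1- DCs had a signal at least 5.63-fold lower than DN DCs and at least 2.81-fold lower than CD4+ DCs. The CD4+ array was 2.0-fold lower than the DN array. Under the 8 alternative settings all of these differences kept their direction and their side of 4-fold. Klra17 has 1 probe set, so the settings that average or leave out probe sets could not change it. A change of floor could not move the differences with both signals above it.

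The Klra17 promoter is shown because Klra17 was the only gene of the 6 called between CD8+CX3CR1+ DCs and every other subset. That of Klrk1, whose signal followed another order, is shown for comparison. Both are from RefSeq, build GRCm38.p6, and run from 250 bases before to 50 bases after the gene's start. Of the 6 genes, 4 were matched in that table. The Klra17 window is chr6:129876623-129876922 and the Klrk1 window chr6:129623815-129624114, both on the minus strand and written 5′ to 3′. Capitals mark the letters GAGGAA, the core of sites bound by PU.1 and Spi-B, and CANNTG, the E-box bound by E proteins such as E2-2, on either strand.
Klra17: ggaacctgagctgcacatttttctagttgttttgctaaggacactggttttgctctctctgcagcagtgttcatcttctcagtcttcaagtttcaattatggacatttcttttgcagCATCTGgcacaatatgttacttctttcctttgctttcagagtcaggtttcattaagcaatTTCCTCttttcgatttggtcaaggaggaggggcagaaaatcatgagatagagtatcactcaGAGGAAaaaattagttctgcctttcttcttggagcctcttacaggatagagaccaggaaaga
Klrk1: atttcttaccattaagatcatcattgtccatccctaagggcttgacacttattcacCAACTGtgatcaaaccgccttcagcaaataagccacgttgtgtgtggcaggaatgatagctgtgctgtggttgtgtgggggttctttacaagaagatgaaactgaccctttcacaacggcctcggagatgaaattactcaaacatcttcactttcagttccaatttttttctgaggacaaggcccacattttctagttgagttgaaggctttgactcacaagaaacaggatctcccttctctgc
The Klra17 window held GAGGAA at 2 places, starting 73 bases (on the opposite strand) and 12 bases (on the strand shown) before the start, and CANNTG at 1 place, starting 133 bases before it. The Klrk1 window held no GAGGAA and 1 CANNTG, starting 194 bases before the start. Of the other matched windows, not shown, that of Klrb1c also held GAGGAA at 2 places, 127 and 111 bases before the start. It held 1 CANNTG, and the probe set that Klrb1c shares with Klrb1b was under the floor on all 4 arrays. The Klrc1 window held no GAGGAA and 1 CANNTG. Over all 32851 promoter windows of this length in the table, 28.3% held GAGGAA and 72.3% held CANNTG, so these letters are common. The narrower E-box CAGGTG, a form of CANNTG found in 20.2% of windows, was in neither window. These matches are letters in a window and do not show binding.

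**Figure D1:**
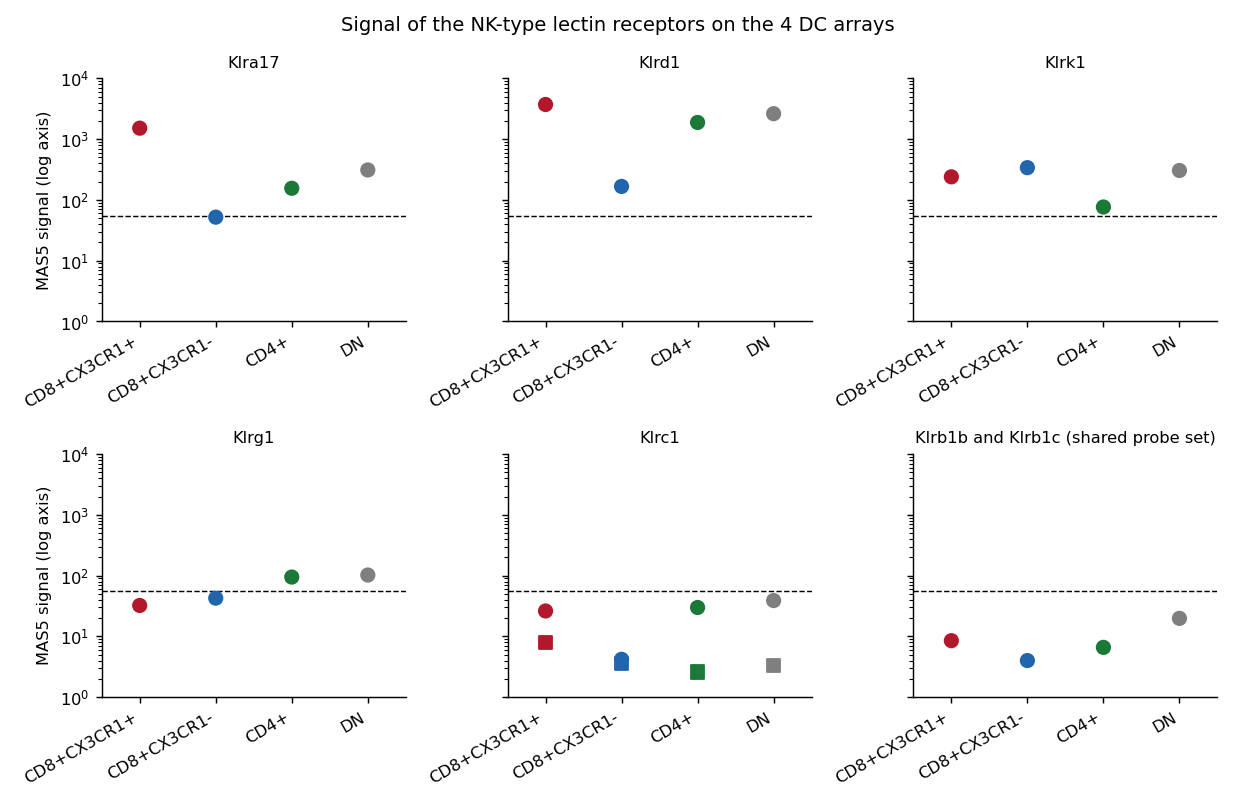
MAS5 signal (log axis) of the 6 receptor genes on the CD8+CX3CR1+, CD8+CX3CR1-, CD4+ and DN arrays, 1 point per array and probe set, with the floor of 55.3 as a dashed line; squares are the second probe set of Klrc1. Klra17 and Klrd1 are lowest in CD8+CX3CR1- DCs, Klrk1 is lowest on the CD4+ array, and Klrc1 and the probe set shared by Klrb1b and Klrb1c lie under the floor on every array.

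Klrd1 encodes CD94, which has almost no cytoplasmic tail and reaches the cell surface of NK cells as the shared partner of the NKG2 chains. Its signal was 3723 in CD8+CX3CR1+, 166.9 in CD8+CX3CR1-, 1886 in CD4+ and 2628 in DN DCs. The 3 subsets other than CD8+CX3CR1- DCs thus lay close together and high, while the CD8+CX3CR1- array stood apart below them. Klrd1 was 22.3-fold higher in CD8+CX3CR1+ than in CD8+CX3CR1- DCs. It was 11.3-fold lower in CD8+CX3CR1- than in CD4+ DCs and 15.7-fold lower than in DN DCs. Among the other 3 subsets it was not called: CD8+CX3CR1+ was 1.97-fold higher than CD4+ and 1.42-fold higher than DN, and CD4+ was 1.39-fold lower than DN. The last of these, a log2 difference of -0.48, is no larger than the probe error of 0.50 in that pair. On the CD8+CX3CR1- array the Klrd1 signal was low but above all 130 background probe sets.

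The chains that CD94 pairs with gave little signal. Klrc1 encodes NKG2A, whose dimer with CD94 is inhibitory and reads the nonclassical MHC molecule Qa-1. Its brighter probe set had signals of 26.2 in CD8+CX3CR1+, 4.2 in CD8+CX3CR1-, 29.9 in CD4+ and 38.9 in DN DCs. The other probe set lay between 2.6 and 8.0. Both were under the floor on all 4 arrays, and 26 to 97 of the 130 background probe sets were at least as high as the brighter one, so no fold is given. Klrc2, which encodes the activating chain NKG2C, was above the floor on the CD8+CX3CR1- array (66.8) and between 6.1 and 17.0 on the others. Klrc3 (NKG2E) was between 3.4 and 6.5. A probe set shared by Klrc2 and Klrc3 lay between 5.1 and 39.4. Klre1, which encodes another NK cell lectin receptor, had 78.6 in CD8+CX3CR1+, 15.1 in CD8+CX3CR1-, 62.0 in CD4+ and 42.3 in DN DCs, at most 1.42-fold above the floor. On the 3 arrays where Klrd1 was highest, the own probe sets of Klrc1, Klrc2 and Klrc3 thus gave at most 38.9, under the floor. Klrc2 and Klrc3 have 1 probe set of their own each, so a weak probe set and little transcript cannot be told apart.

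Klrk1 encodes NKG2D, an activating receptor for stress-induced relatives of MHC class I. Its signal was 240.1 in CD8+CX3CR1+, 340.0 in CD8+CX3CR1-, 76.5 in CD4+ and 305.3 in DN DCs. Unlike Klra17 and Klrd1, Klrk1 was highest on the CD8+CX3CR1- array and lowest on the CD4+ array. CD8+CX3CR1- DCs were 4.44-fold higher than CD4+ DCs, and this pair was called. CD8+CX3CR1+ DCs were 3.14-fold higher than CD4+ DCs, and CD4+ DCs were 3.99-fold lower than DN DCs, which is just short of the threshold. With quantile normalization or scaling to an equal median the last pair was past 4-fold, with log2 differences of -2.17 and -2.28. CD8+CX3CR1+ DCs were 1.42-fold lower than CD8+CX3CR1- DCs and 1.27-fold lower than DN DCs, and CD8+CX3CR1- DCs were 1.11-fold higher than DN DCs. The differences against DN are smaller than the probe error in those pairs (0.42 and 0.47 on the log2 scale), and that between the CD8+ arrays, -0.50, is close to it (0.47). On the CD4+ array, 8 of 130 background probe sets were at least as high as Klrk1, and on the other arrays none was. The array with the low Klrk1 signal is also the one with the largest 3'/5' ratio of Gapdh and the most probe sets above the floor; their part in the difference was not tested.

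Klrg1 encodes an inhibitory receptor for cadherins that marks differentiated NK and T cells. Its signal was 32.3 in CD8+CX3CR1+, 42.6 in CD8+CX3CR1-, 94.8 in CD4+ and 102.4 in DN DCs. It was above the floor only on the CD4+ and DN arrays, where 5 and 2 of the 130 background probe sets were at least as high. Against the floor, CD8+CX3CR1+ DCs were at least 1.71-fold lower than CD4+ DCs and at least 1.85-fold lower than DN DCs, and no pair was called. The bounds for the CD8+CX3CR1- array were the same, because both CD8+ arrays lay under the floor. Klrb1c encodes NK1.1, the activating receptor that defines NK cells in C57BL/6 mice. The probe set annotated to both Klrb1b and Klrb1c had 8.5 in CD8+CX3CR1+, 4.0 in CD8+CX3CR1-, 6.6 in CD4+ and 19.8 in DN DCs. All were under the floor, and 57 to 98 background probe sets were at least as high.

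Counted over the 6 genes, 2 were at least 4-fold apart between CD8+CX3CR1+ and CD8+CX3CR1- DCs (Klra17 and Klrd1, both higher), a pair in which 2.82% of the 12673 detected genes were, 1.67% higher and 1.15% lower. Against CD4+ DCs 1 was, Klra17, with 0.773% of all genes (0.395% higher, 0.379% lower), and against DN DCs again Klra17, with 0.410% (0.276% higher, 0.134% lower). Between CD8+CX3CR1- and CD4+ DCs 2 were (Klrd1 lower, Klrk1 higher), with 2.97% of all genes (1.18% higher, 1.80% lower). Between CD8+CX3CR1- and DN DCs 2 were (Klra17 and Klrd1, both lower), with 2.02% (0.742% higher, 1.28% lower). Between CD4+ and DN DCs 0 were, with 0.253% (0.0710% higher, 0.181% lower). Among the 212 genes at least 4-fold higher in CD8+CX3CR1+ than in CD8+CX3CR1- DCs, Klra17 ranked 6 and Klrd1 13, bounds included. Klra17 ranked 10 of the 50 genes higher than in CD4+ DCs and 19 of the 35 higher than in DN DCs. Klrd1 ranked 17 among the 162 genes lower in CD8+CX3CR1- than in DN DCs. These pairs share arrays: a low signal on the CD8+CX3CR1- array enters 3 of them.

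**Figure D2:**
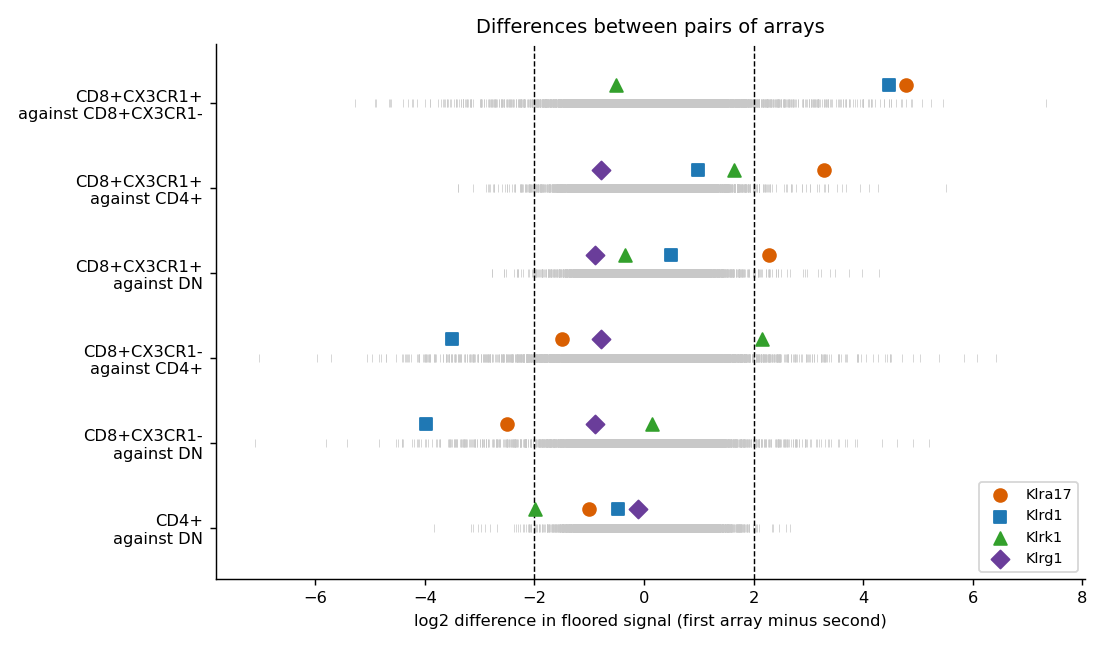
Log2 difference in floored signal (first array minus second) in the 6 pairs of arrays, with a grey tick for each of the 12673 detected genes and coloured symbols for Klra17, Klrd1, Klrk1 and Klrg1; dashed lines mark 4-fold, and a pair with both signals under the floor has no symbol. Klra17 lies right of the 4-fold line in all 3 comparisons of CD8+CX3CR1+ DCs, and Klrd1 lies past a 4-fold line in the 3 pairs that hold the CD8+CX3CR1- array and in no other.

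In the mouse RefSeq gene table (assembly GRCm38.p6) all 6 genes are on chromosome 6. Their order is Klrg1, Klrb1c, Klrd1, Klrk1, Klrc1 and Klra17, with 112 coding genes between Klrg1 and Klrb1c and 20 between Klrb1c and Klrd1. Klrd1 and Klrk1 are direct neighbours, yet the first was lowest on the CD8+CX3CR1- array and the second highest there. On the other side of Klrd1 lies Klre1, with the low signals given above, followed by Gabarapl1, an autophagy gene outside the family, with 671.9 in CD8+CX3CR1+, 356.6 in CD8+CX3CR1-, 467.6 in CD4+ and 421.4 in DN DCs. The neighbour of Klra17 with a probe set of its own, Klra5, was 4.2 in CD8+CX3CR1+, 64.5 in CD8+CX3CR1-, 66.0 in CD4+ and 10.5 in DN DCs. The high Klra17 signal on the CD8+CX3CR1+ array was thus not accompanied by Klra5.

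Other listed lectins of the NK gene complex with a probe set of their own had signals of at most 312.6 at the probe set used. Of 40 listed, 21 had a probe set of their own and 12 were detected, that is, exceeded the floor on 1 or more arrays. Klrb1f, a gene of the NKR-P1 family, had the widest range, with 76.8 in CD8+CX3CR1+, 46.4 in CD8+CX3CR1-, 181.6 in CD4+ and 312.6 in DN DCs. It was 4.07-fold lower in CD8+CX3CR1+ than in DN DCs and at least 5.65-fold lower in CD8+CX3CR1- than in DN DCs, the only calls of this list in the 6 pairs. The first was under 4-fold in 3 of 8 other settings and the second under it with its 2 probe sets averaged. Of all detected genes, 0.253% to 2.97% were called in a pair. Klrb1b, an inhibitory NKR-P1 receptor, was 34.3 in CD8+CX3CR1+ and 36.5 in CD8+CX3CR1- DCs, with 167.7 in CD4+ and 113.5 in DN DCs. Only 1 of its 5 probe sets was above the floor on the CD4+ array, and others exceeded it on the DN array alone (115.8 and 62.3). Clec2i, an NKR-P1 ligand gene, was highest on the CD4+ array (155.2, against 2.7 on CD8+CX3CR1+, 43.4 on CD8+CX3CR1- and 63.4 on DN). Clec1b (CLEC-2) was 117.4 in CD8+CX3CR1+, 58.8 in CD8+CX3CR1-, 168.8 in CD4+ and 55.8 in DN DCs. The median log2 difference of the 12 genes lay between -0.53 and 0.34 over the 6 pairs, and that of all detected genes between -0.01 and 0.01.

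The adaptor genes Fcer1g, Tyrobp and Hcst lay above the floor on all 4 arrays, while Cd247 lay under it on all of them. Of 24 listed adaptors and signalling partners, 20 had a probe set of their own and 17 were detected. Fcer1g, the Fc receptor gamma chain, with which NK1.1 associates, had 3693 in CD8+CX3CR1+, 125.6 in CD8+CX3CR1-, 3903 in CD4+ and 2649 in DN DCs. It was 29.4-fold higher in CD8+CX3CR1+ than in CD8+CX3CR1- DCs, and in CD8+CX3CR1- DCs it was 31.1-fold lower than in CD4+ and 21.1-fold lower than in DN DCs. Tyrobp (DAP12), an adaptor of activating Ly49 and CD94/NKG2 receptors, was 7708 in CD8+CX3CR1+, 8258 in CD8+CX3CR1-, 15635 in CD4+ and 10195 in DN DCs, a range of 2.03-fold. Hcst (DAP10), the main adaptor of NKG2D, was 170.7 in CD8+CX3CR1+, 127.8 in CD8+CX3CR1-, 322.2 in CD4+ and 169.6 in DN DCs. It was thus highest where Klrk1 was lowest. The last 2 were named for their role and not for their range.

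Of the phosphatases recruited by inhibitory receptors, Ptpn6 (SHP-1) was 3660 in CD8+CX3CR1+, 897.3 in CD8+CX3CR1-, 3550 in CD4+ and 3056 in DN DCs. It was 4.08-fold higher in CD8+CX3CR1+ than in CD8+CX3CR1- DCs, while its second probe set gave 655.4 against 485.4, and the averaged difference was under 4-fold. Inpp5d (SHIP-1) ran the other way, with 638.8 in CD8+CX3CR1+, 1490 in CD8+CX3CR1-, 545.1 in CD4+ and 808.3 in DN DCs, and was not called. Lcp2 (SLP-76), a scaffold of activating signalling, was 962.6 in CD8+CX3CR1+, 785.3 in CD8+CX3CR1-, 2279 in CD4+ and 1398 in DN DCs. Of the 17 detected genes, 2 were called higher in CD8+CX3CR1+ than in CD8+CX3CR1- DCs (Fcer1g and Ptpn6). In that pair 2.82% of all detected genes were called in either direction. Only 1, Fcer1g, was called lower in CD8+CX3CR1- than in CD4+ DCs and than in DN DCs, with 2.97% and 2.02% of all genes called. In the other 3 pairs 0 were called, with 0.253% to 0.773% of all genes. The medians of the 17 genes lay between -0.35 and 0.24. Cd247, the zeta chain used by NK and T cells, lay under the floor on all 4 arrays.

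**Figure D3:**
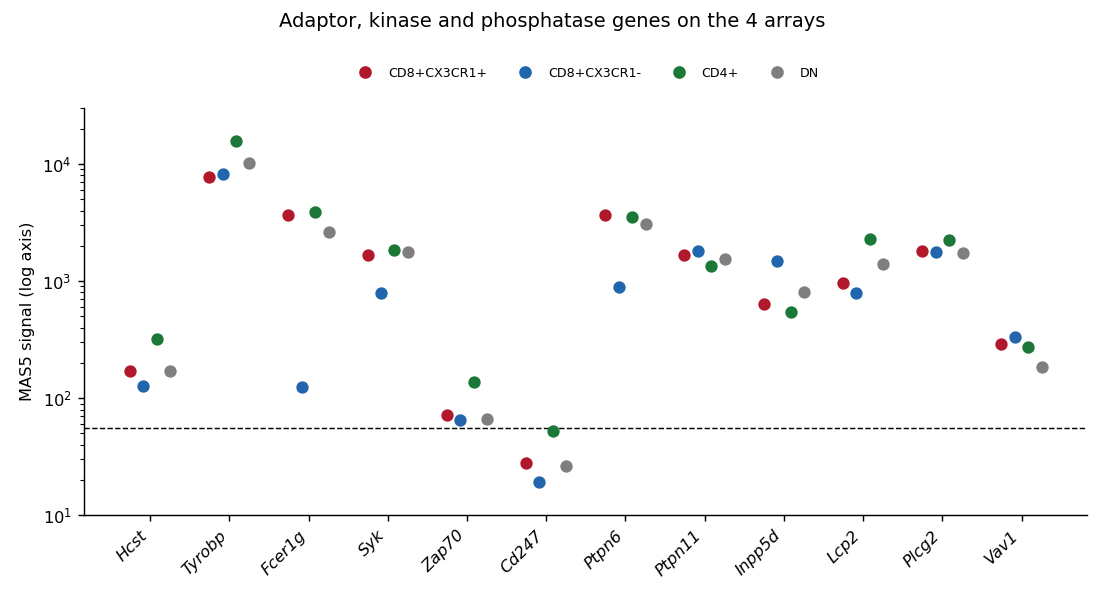
MAS5 signal (log axis) of 12 adaptor, kinase and phosphatase genes on the 4 arrays, with the floor of 55.3 as a dashed line. Fcer1g is far lower in CD8+CX3CR1- DCs (125.6) than in the other 3 subsets, Tyrobp stays within a range of 2.03-fold, and Cd247 lies under the floor on every array.

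Among the detected ligand genes of the receptors no difference was called. Of 18 listed, 9 had a probe set of their own and 6 were detected. H2-T23 (Qa-1), the listed Raet1 genes, H60a and H60b had no probe set of their own, so they are not covered here. The MHC class I genes H2-K1 and H2-D1, from which Ly49 ligands are made, spanned 13035 to 18486 and 6741 to 9759 over the 4 arrays, a range of 1.42-fold and 1.45-fold. Their probe sets can share sequence with other class I genes. Cdh4, a cadherin of the kind KLRG1 binds, was 88.5 on the CD8+CX3CR1+ array and at most 32.6 on the others. H60c, an NKG2D ligand gene, was 77.9 on the DN array and at most 35.5 on the others. Cdh1 (E-cadherin) and Ulbp1, which encodes the NKG2D ligand MULT1, were under the floor on all 4 arrays. In all 6 pairs 0 of the 6 detected genes were at least 4-fold apart, with medians between -0.19 and 0.14. Of all detected genes, 0.253% to 2.97% were in a pair, so 0 of 6 is near that share.

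Because these receptors are carried by NK cells and some T cells, the markers of both were read on the same arrays. Of the 5 defining NK markers, Ncr1 (NKp46) was under the floor on all 4 arrays (5.7 to 36.4), and Nkg7, Gzma, Prf1 and Eomes did not exceed 84.5, 114.8, 58.2 and 108.2 on any array. Their summed signal was 306.5 in CD8+CX3CR1+, 203.5 in CD8+CX3CR1-, 205.1 in CD4+ and 344.4 in DN DCs. The sum was thus higher in CD8+CX3CR1+ and DN DCs than in CD8+CX3CR1- and CD4+ DCs, but much of it is signal near or under the floor. Of the 5 genes, 3 exceeded the floor in CD8+CX3CR1+, 2 in CD8+CX3CR1-, 1 in CD4+ and 3 in DN DCs. The part of these signals in the Klra17 and Klrd1 differences was not tested. The T cell genes Cd3d, Cd3e and Cd3g did not exceed 59.1, 66.8 and 5.7. Of the 22 NK markers listed, 21 had a probe set of their own, 13 were detected and 3 to 9 were above the floor on any one array. Their summed signal was 4822 in CD8+CX3CR1+, 2331 in CD8+CX3CR1-, 6220 in CD4+ and 5651 in DN DCs, of which the chemokine gene Ccl5, also made by other cells, gave 2733 (CD8+CX3CR1+), 1782 (CD8+CX3CR1-), 4428 (CD4+) and 3752 (DN). Fewer cells of a type and less RNA per cell cannot be told apart in such bulk samples.

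Only 2 genes of the NK list were called in any pair, and both were lowest on the CD8+CX3CR1- array. Over the 6 pairs, 0.253% to 2.97% of all detected genes were called in either direction. Cd7, a surface protein of NK and T cells, had 1030 in CD8+CX3CR1+, 41.0 in CD8+CX3CR1-, 965.3 in CD4+ and 923.9 in DN DCs. It was at least 18.6-fold higher in CD8+CX3CR1+ than in CD8+CX3CR1- DCs, and in CD8+CX3CR1- DCs it was also lower than in CD4+ DCs (at least 17.4-fold) and DN DCs (at least 16.7-fold). Ctsw, a lysosomal protease of cytotoxic cells, had 325.2 in CD8+CX3CR1+, 23.3 in CD8+CX3CR1-, 173.6 in CD4+ and 98.8 in DN DCs, at least 5.88-fold higher in CD8+CX3CR1+ than in CD8+CX3CR1- DCs. Tbx21, the transcription factor T-bet, was 70.3 in CD8+CX3CR1+, 1.8 in CD8+CX3CR1-, 90.5 in CD4+ and 140.8 in DN DCs and was not called. The median log2 difference of the 13 detected NK markers lay between -0.66 and 0.35 over the 6 pairs. In the T cell list 10 of 15 genes with a probe set were detected. In any pair 0 were called, near the share of all genes given above, with list medians between -0.26 and 0.21. Cd5, also carried by some DCs, had the widest range of this list, with 117.4 in CD8+CX3CR1+, 45.4 in CD8+CX3CR1-, 170.7 in CD4+ and 128.1 in DN DCs. The summed T cell signal was 885.2 in CD8+CX3CR1+, 715.4 in CD8+CX3CR1-, 1245 in CD4+ and 830.6 in DN DCs. Its brightest gene was Icos, above the floor on every array, with 383.7 (CD8+CX3CR1+), 347.2 (CD8+CX3CR1-), 467.0 (CD4+) and 440.6 (DN).

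**Figure D4:**
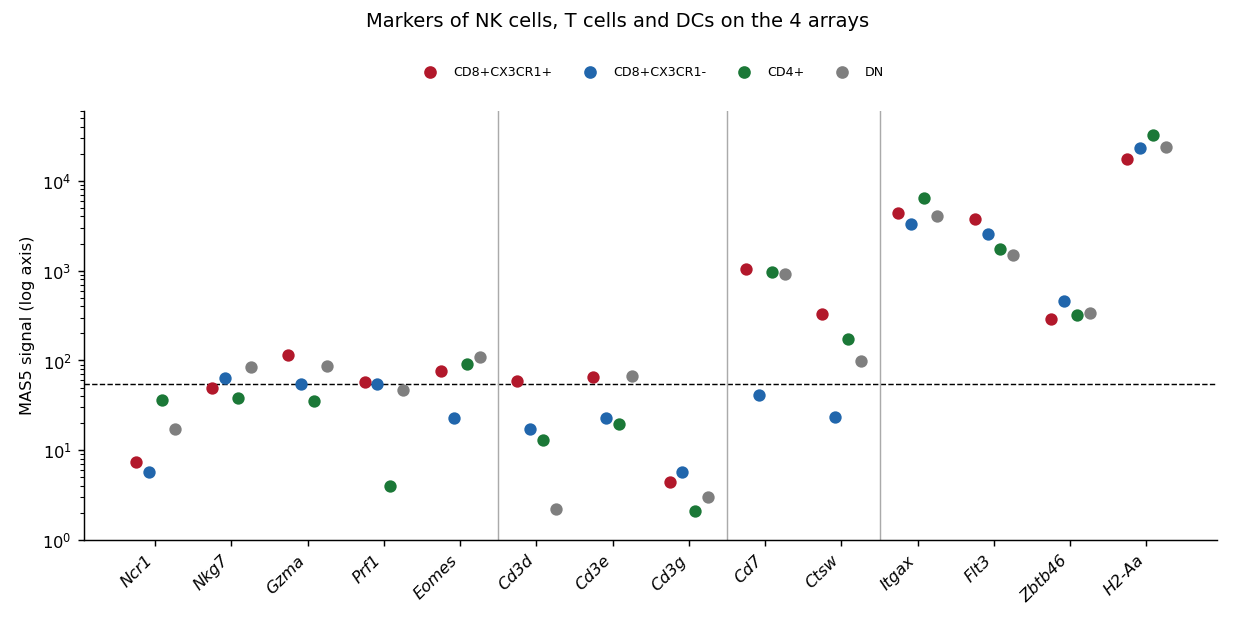
MAS5 signal (log axis) of 5 defining NK markers, 3 defining T cell markers, Cd7 and Ctsw, and 4 DC markers on the 4 arrays, with the floor of 55.3 as a dashed line and grey lines between the groups. The defining NK and T cell markers stay at or below 114.8, Cd7 and Ctsw lie under the floor in CD8+CX3CR1- DCs alone, and the DC markers lie far above the floor on every array, with the exception that Zbtb46 reaches only 288.1 to 455.7.

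Klra17 is itself used as a marker of plasmacytoid DCs, so other markers of these cells were read beside it. Of 20 listed, 16 had a probe set of their own and 13 were detected. Tcf4 (E2-2), the transcription factor that sets plasmacytoid DC identity, was 3489 in CD8+CX3CR1+, 269.5 in CD8+CX3CR1-, 470.0 in CD4+ and 1135 in DN DCs at its brightest probe set. Spib (Spi-B) was 1557 in CD8+CX3CR1+, 60.3 in CD8+CX3CR1-, 577.2 in CD4+ and 704.5 in DN DCs. Bst2 was also highest on the CD8+CX3CR1+ array, at 659.5, with 235.5 on CD8+CX3CR1-, 89.8 on CD4+ and 231.6 on DN. Lair1, an inhibitory collagen receptor, had another order, with 299.3 in CD8+CX3CR1+, 90.6 in CD8+CX3CR1-, 518.7 in CD4+ and 295.5 in DN DCs. Siglech, a defining marker of these cells, was 205.6 in CD8+CX3CR1+, 63.6 in CD8+CX3CR1-, 5.8 in CD4+ and 12.9 in DN DCs. Other genes of the list, named after their values were seen, did not follow Klra17. Pld4, an endolysosomal nuclease gene, was lowest in CD8+CX3CR1+ DCs, at 825.0 against 2099 in CD8+CX3CR1-, 2584 in CD4+ and 1917 in DN DCs. Irf7, the interferon regulatory factor, was lowest there too, at 301.7 against 425.8 in CD8+CX3CR1-, 547.8 in CD4+ and 328.1 in DN DCs. Cox6a2 (161.1) and Pacsin1 (86.0) were highest in CD4+ DCs, and Ly6d, Dntt and Rag1 were under the floor on all 4 arrays. Klra17 had its highest signal where Siglech did, but its next was on the DN array, where Siglech lay under the floor. Summed over the list the signal was 8899 in CD8+CX3CR1+, 3865 in CD8+CX3CR1-, 5624 in CD4+ and 5606 in DN DCs. The largest part came from Tcf4 in CD8+CX3CR1+ DCs (3489). In the other subsets it came from Pld4 (2099 in CD8+CX3CR1-, 2584 in CD4+ and 1917 in DN DCs). The sum therefore rests largely on a few bright probe sets. Of the 13 genes, 3 were called higher in CD8+CX3CR1+ than in CD8+CX3CR1- DCs (Tcf4, Spib and the interleukin 7 receptor gene Il7r), 3 higher than in CD4+ DCs (Bst2, Tcf4 and Atp1b1) and 0 against DN DCs, where Klra17 was. In CD8+CX3CR1- DCs 2 were called lower than in CD4+ DCs (Spib and Lair1) and 2 lower than in DN DCs (Tcf4 and Spib). Between CD4+ and DN DCs 0 were called. Of all detected genes, 2.82%, 0.773% and 0.410% were called in CD8+CX3CR1+ against CD8+CX3CR1-, CD4+ and DN DCs. In the other 3 pairs 0.253% to 2.97% were. The list's median was 1.49 in CD8+CX3CR1+ against CD8+CX3CR1- DCs, 1.29 against CD4+ DCs and 0.68 against DN DCs, with 0 for all detected genes in these pairs. The Il7r and Lair1 calls, and those of Tcf4 against the CD4+ and DN arrays, fell short of 4-fold when a gene's probe sets were averaged, and that of Tcf4 against DN also without _x, _s and _a probe sets. The Atp1b1 call was lost in 3 of 8 alternatives (the floor at the 95th percentile, averaging, and no _x, _s or _a probe sets), in 1 of which the log2 difference turned to -0.04. Any part of plasmacytoid DCs in the Klra17 difference was not tested.

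The genes with the pattern most like each receptor over the 4 arrays were found by the root mean square difference of log2 floored signals after each gene's own mean was taken off. This is a description of 4 arrays, in which many genes can look alike. For Klra17 the nearest was Tcf4, at a distance of 0.40. L1cam, an adhesion molecule gene (0.45), the lectin gene Cd209d (0.47), the histamine receptor gene Hrh1 (0.48) and the lectin gene Cd209e (0.53) followed. All 5 were highest on the CD8+CX3CR1+ array, where L1cam, for instance, had 1784 against 89.8 on CD8+CX3CR1-, 335.0 on CD4+ and 849.8 on DN. For Klrd1 the nearest was the lectin gene Cd209a (0.15), which was 995.7 in CD8+CX3CR1+, 2.4 in CD8+CX3CR1-, 651.0 in CD4+ and 768.5 in DN DCs. The signal transducer gene Stat4 (0.23), Spib (0.24), the chemokine gene Ccl9 (0.27) and the oxysterol receptor gene Gpr183 (0.27) were next. In 3 of these 5 genes (Cd209a, Stat4 and Ccl9) CD8+CX3CR1- DCs had a signal under the floor, so their depth there is not measured.

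Klrk1 was near to genes of other kinds: the kinase gene Map3k4 (0.14), the GTPase gene Rraga (0.15), the LIM domain gene Crip1 (0.16), the kinase gene Eif2ak4 (0.17) and Fbxo34 (0.18). All 5 were lowest on the CD4+ array, where Crip1, for instance, had 1780 against 4662 on CD8+CX3CR1+, 8566 on CD8+CX3CR1- and 6048 on DN. Rraga (50.4) and Eif2ak4 (50.9) were under the floor on the CD4+ array, so their depth there is not measured. None of the nearest genes of Klrk1 was among those of Klra17 or Klrd1, and the lists of Klra17 and Klrd1 shared none either. Lists of 5 genes are short, so this does not set Klrk1 apart.

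**Figure D5:**
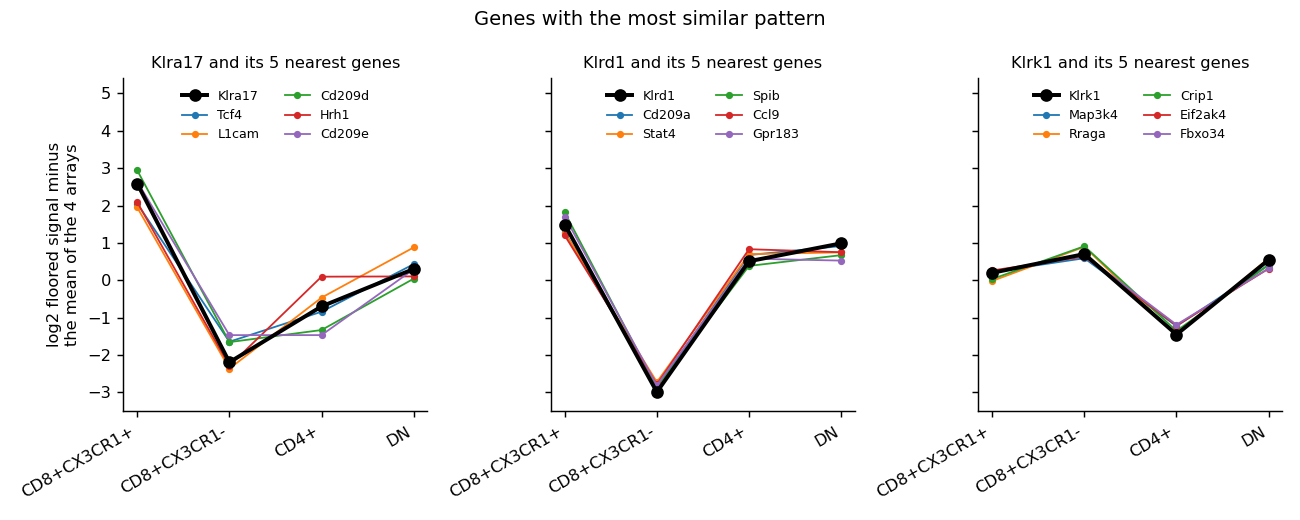
Log2 floored signal minus each gene's mean over the 4 arrays for Klra17, Klrd1 and Klrk1 (black) and for the 5 genes nearest to each (coloured); lines join the arrays of a gene and imply no order. The Klrd1 and Klrk1 neighbours follow within a distance of 0.27 and 0.18, while the nearest gene to Klra17, Tcf4, is at 0.40.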

How the data were processed

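RNA of 4 DC subsets sorted from mouse spleen was hybridised to Affymetrix mouse genome-wide arrays, 1 per subset. The authors deposited 1 linear intensity for each probe set, and the submitters' processing notes name MAS5, with no version given here. The mean after trimming 2% at each end was 150.0 on every array, so total RNA per cell cannot be compared. Of 45101 probe sets, 34945 had 1 gene symbol in the platform annotation, 932 several, 9160 none and 64 were controls. Where a gene had several probe sets, the one whose mean log2 signal was highest stood for it. The floor, the 4-fold threshold and bounds are described with the results. Groups were taken from titles.

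The genes and 6 gene lists were chosen with earlier results of these data known. Named genes were the 6 receptors, the 5 genes nearest to each receptor with a range of at least 4-fold, up to 4 genes per list with the widest range, marker genes, and partners and neighbours named for their role or place after their values were seen. Alternatives were quantile normalization, equal medians, floors at the 75th or 95th percentile or per array, no floor, averaged probe sets, and no _x, _s or _a probe sets. Computation used Python 3.11.15, numpy 2.4.6 and pandas 2.3.3. Scan dates and detection calls were not used here. The number of arrays limits the precision.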

Additional observations from a re-analysis of the deposited data

How the results depend on the processing

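Of 23 differences of a receptor gene between 2 arrays, 8 were called, and all 8 stayed past 4-fold in the same direction under each of the 8 alternative settings that gave a value. Of 178 alternative values, 174 moved by less than the probe error of the pair, 4 (all of Klrg1) by more, and 0 reversed. Klrg1 in CD8+CX3CR1+ DCs had log2 differences of -1.43 against CD4+ and -1.54 against DN with the floor at the 75th percentile, and of -1.55 and -1.66 without a floor. The number of receptor genes called between CD4+ and DN DCs became 1 (Klrk1) with quantile normalization or equal medians. Between CD8+CX3CR1- and CD4+ DCs it became 1 without _x, _s and _a probe sets, because the Klrk1 probe set is of that kind and gave no value. Without a floor it became 3 in each of the 3 pairs that hold CD8+CX3CR1- DCs, by adding Klrc1, whose signals there are all under the floor. Klra17, Klrd1, Klrk1 and Klrg1 have 1 probe set each, so averaging could not change them and no second probe set checks them. For the same reason, leaving out _x, _s and _a probe sets returned the same values for Klra17, Klrd1 and Klrg1. A changed or absent floor could not move a difference whose signals both lay above every floor used. Many of the 174 values were therefore fixed in advance, and their staying in place is no check.

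Over all genes, in the order CD8+CX3CR1+ against CD8+CX3CR1-, CD4+ and DN, CD8+CX3CR1- against CD4+ and DN, and CD4+ against DN, the calls (358, 98, 52, 377, 256 and 32) became 3180, 3096, 2814, 3627, 3365 and 3213 without a floor and 216, 50, 26, 245, 161 and 14 with averaged probe sets. With the floor at the 75th percentile CD8+CX3CR1+ against CD4+ had 192, against DN 88, and CD4+ against DN 90, which fell to 20 at the 95th. Equal medians moved the median gene by 0.17, 0.16 and -0.13 (log2) in CD8+CX3CR1+, CD8+CX3CR1- against CD4+ and CD4+ against DN, and the calls from 50 higher and 48 lower to 90 and 21, from 149 and 228 to 237 and 158, and from 9 and 23 to 5 and 35. In CD4+ against DN more genes were higher than lower with the floor at the 75th percentile (51 and 39) and without a floor (1997 and 1216), the opposite of the 9 and 23 above. A floor per array moved the median gene by up to 0.16. No paired analysis was possible because each subset has 1 array. The precision is limited by 1 array per subset and by signals near background, as for Klrg1, Klrc1 and the probe set shared by Klrb1b and Klrb1c.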

Other observations

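A probe set annotated to both Klra9 and Klra3, Ly49 receptor genes whose sequences are alike, had 205.9 in CD8+CX3CR1+, 426.6 in CD8+CX3CR1-, 661.9 in CD4+ and 604.2 in DN DCs. It was the only one of the 4 probe sets shared by several Klr genes that lay above the floor. Its order differs from that of Klra17, as it was lowest on the CD8+CX3CR1+ array. It cannot be assigned to a single gene, and its name ends in _x_at. Of the Ly49 genes other than Klra17 with probe sets of their own, Klra5 was just above the floor in CD8+CX3CR1- (64.5) and CD4+ DCs (66.0), and Klra1, Klra2, Klra7 and Klra8 lay under it on all 4 arrays at their brightest probe set.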
